A study of Mus musculus with 8 samples.

Results

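The comparison described here is the effect of Oct6 induction on gene expression in mouse embryoid bodies at day 4 of differentiation. It sets 1 induced RNA-seq library beside 1 control library of the same day. A gene was counted when its FPKM (fragments scaled to transcript length and library size) was at least 1 in either library. Of 22558 genes in the deposited table, 12678 met that rule. The value followed for each gene is the difference of log2(FPKM + 1), induced minus control, and "higher" or "lower" below means a difference of at least 1 on that scale, that is at least 2-fold. Because the pseudocount of 1 is added to both sides, differences of weakly expressed genes are understated.

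Oct6 is the protein of Pou3f1, a class III POU transcription factor of the epiblast, the early neural plate and, later, myelinating Schwann cells. POU factors bind DNA through a bipartite domain that recognises the octamer sequence and palindromic relatives of it. Embryoid bodies are floating aggregates of embryonic stem cells. As they leave pluripotency they form neural cells, mesoderm and endoderm, and commonly an outer layer of visceral endoderm, the extraembryonic epithelium that takes up and secretes nutrients.

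The control group at day 4 is an embryoid body culture labelled as control. The induced group at day 4 carries an inducible Oct6 and was labelled as induced with doxycycline. The labels name the mouse stem cell lines R1 and R1/E as the source, with feeder cells used before differentiation. Which line either library came from is not stated, nor whether control cells also received doxycycline, so effects of the drug or of the line cannot be told apart from that of Oct6. Library titles carry the prefix fbs, while the growth protocol describes serum-free culture, and the labels do not settle which medium was used. At days 2 and 6 the study has the same pair of libraries, and at day 4 it also has 1 Oct6 ChIP library and 1 input library from cells labelled as overexpressing Oct6.

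With 1 library per arm there is no replicate check at day 4, and no p-value is given. In weakly expressed genes the FPKM values fall on steps worth 1 fragment. By the ratio of these steps, the induced library was about 0.518 times as deep as the control library. With annotated transcript lengths this corresponds to roughly 26000000 fragments in the induced and 51600000 in the control library, so that an FPKM of 1 in a transcript of 2 kb rests on about 52.0 and 103 fragments. Listed genes of housekeeping complexes differed little between the libraries. The 30 listed cytosolic ribosomal protein genes lay between -0.23 and 0.20. Rps27, a ribosomal protein gene outside that list, was lower (1843 FPKM in control and 585 in induced, -1.65). All 25 listed proteasome subunit genes lay between -0.19 and 0.25. The Y-linked genes Ddx3y (10.02 in control and 10.2 FPKM in induced) and Eif2s3y (46.1 and 46.6 FPKM) were also at like levels in the 2 arms.

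In total 772 genes were higher in the induced library, which is 6.09% of the genes counted, and 268 were lower, which is 2.11%. At least 4-fold differences were found for 161 higher and 38 lower genes, and at least 8-fold differences for 41 and 12. The median difference over all counted genes was 0.10. The middle part of the distribution, from the 25th to the 75th percentile, ran from -0.13 to 0.36. Higher genes started from low levels: their median level was 0.945 FPKM in control bodies and 5.42 in induced ones, and 392 of them lay under 1 FPKM in control. Lower genes were more strongly expressed, with a median of 8.77 FPKM in control and 2.30 in induced cells, and 95 of them fell short of 1 FPKM in the induced library. The counting rule admitted 845 genes through the induced library alone and 322 through the control library alone, and such genes tend to differ by construction. Among the 11511 genes with at least 1 FPKM in both libraries, 380 were higher (3.3%) and 173 lower (1.5%). Scaling moved the balance. In the deposited values 74.2% of changed genes were higher. Equalising the median ratio of the libraries gave 67.8%, and quantile normalisation gave 58.9%, with 560 higher and 391 lower genes. At the edges of the rules, Kis2 was just counted (0.897 and 1.0005 FPKM in control and induced) and Zfp455 just missed (0.705 and 0.9996). Hsf2bp passed the fold threshold by a margin in the third decimal (1.99 and 4.98 FPKM) and the sodium channel gene Scn3a (0.0411 and 1.08) did not.

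**Figure D1:**
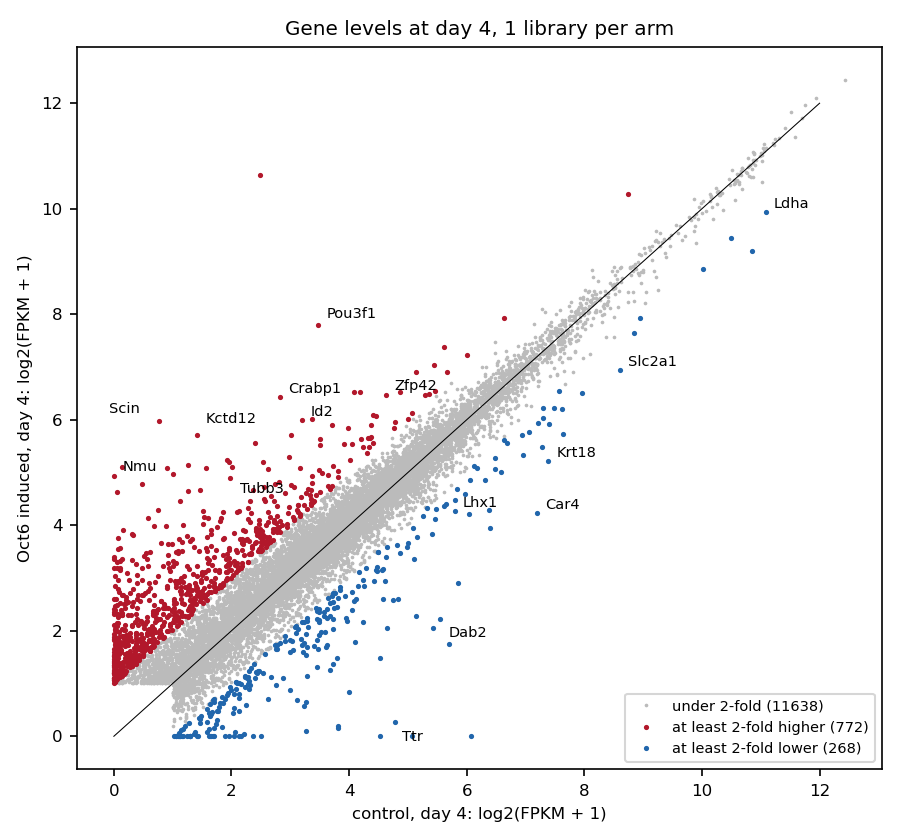
Each point is a gene counted at day 4, with its log2(FPKM + 1) in the control library on the horizontal and in the Oct6 induced library on the vertical axis, and the line marks equal values. The 772 higher genes lie mostly at low control levels, and the 268 lower genes reach up to Ldha, at 2167 FPKM in control.

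Pou3f1 itself had 10.1 FPKM in the control and 222 FPKM in the induced library, a difference of 4.33. It was among the 5 most abundant higher genes, and transcripts of the introduced Oct6 are not distinguished here from those of the resident gene on chromosome 4. In control libraries Pou3f1 went from 64.3 FPKM at day 2 to 10.1 at day 4, so the arms lay further apart at day 4 than at day 2 (a difference of 2.26), although the induced level was lower at day 4 than the 312 FPKM of day 2.

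Beyond Pou3f1, the largest differences among genes with at least 10 FPKM, leaving out small RNA, predicted and pseudogene symbols, included several genes of neurons and neuropeptide signalling. Scin, which encodes the actin-severing protein scinderin, had 0.704 FPKM in control and 61.7 in induced cells (5.20). Cited4, a CBP/p300-interacting coactivator, had 0.0995 and 33.3 FPKM (4.96). Nmu, the gene of the neuropeptide neuromedin U, was listed at 0 in control and at 29.8 FPKM in induced cells. C1ql2, a secreted synaptic organiser of the C1q family, had 0.0340 and 23.8 FPKM (4.58). Nell2, a secreted neuronal glycoprotein, had 0.390 and 26.4 FPKM (4.30), and Mc4r, the melanocortin receptor of hypothalamic neurons, had 0.0514 and 12.6 FPKM (3.70). The others of the leading 12 were Kctd12, an auxiliary subunit of GABA-B receptors (4.29), Bves, a popeye-domain membrane protein (4.18), Col1a2 (3.97), the imprinted zinc finger gene Plagl1 (3.88) and the uncharacterised transcript 2610203C20Rik (3.76). Each of these 12 genes also had a positive difference at days 2 and 6, but Scin, Nmu, Nell2 and Mc4r had their highest induced level of the 3 days at day 4, whereas Cited4, C1ql2, Col1a2 and Plagl1 had it at day 2.

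Among transcription factors of the neural plate and its progenitors, those lying close to silent in the control library accounted for most of the higher genes. Of 22 listed factors 19 were counted, 10 higher and 0 lower, with a median of 1.57, and 0.81 over all 22. Of these 19, 9 were counted only through the induced library, and of the 10 with at least 1 FPKM on both sides only Fabp7, the fatty acid binding protein of radial glia, was higher (2.03 and 16.6 FPKM, 2.54). Irx3, a homeobox factor of the posterior neural plate, had 0.841 and 14.9 FPKM (3.11). Sox21, a SoxB2 factor, had 0.422 and 9.64 FPKM (2.90), and the ventral neural tube factor Nkx6-1 had 0.0490 and 5.92 FPKM (2.72). Class III POU relatives of Oct6 were also higher. Pou3f3 had 0.0482 and 3.797 FPKM (2.19) and Pou3f4 0.301 and 2.86 FPKM (1.57). The early neural markers Sox1 (0.0307 and 2.61 FPKM) and Pax6 (0.138 and 3.30 FPKM) differed by 1.81 and 1.92, from a control level near 0. Factors already expressed in control bodies differed less: Sox2 by 0.88 (35.5 and 65.9 FPKM), Sox11 by 0.74, Sox3 by -0.01 and Zic2 by -0.78 (37.4 and 21.3 FPKM).

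Neuronal differentiation factors showed the same split between nearly silent genes and expressed ones. Of 23 listed, 11 were counted, 7 of them higher and 1 lower, and 7 of the 11 were counted only through the induced library. The early B-cell factor genes, whose products drive neuronal differentiation and migration, had 0.248 and 13.1 FPKM for Ebf1 (3.50), 0.0424 and 8.82 for Ebf3 (3.24) and 0.0188 and 1.05 for Ebf2 (1.01). Insm1, a zinc finger repressor of neuroendocrine and basal progenitors, had 0.0785 and 8.12 FPKM (3.08). The proneural bHLH genes stayed weak: Neurog1 reached 0.665 FPKM and Neurog2 0.222 in the induced library, both under the counting limit. All 12 factors that were not counted had positive differences, at levels under 1 FPKM in both libraries. The same share over all uncounted genes was not computed. The lower gene of the list was Lhx1, with 54.4 and 18.3 FPKM (-1.52), a LIM factor of neurons but also of the primitive streak, node and visceral endoderm.

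Among regional identity genes, the midbrain and hindbrain, Hox and Cdx, and forebrain and eye lists all had higher members. None of these members had at least 1 FPKM in both libraries, and the lists differ in size. Their counts therefore cannot show a regional bias. Of 14 midbrain and hindbrain factors 9 were counted and 8 were higher, all of them admitted through the induced library alone. Irx2 had 0.456 and 10.2 FPKM (2.94), Gbx2, which sets the anterior border of the hindbrain, 0.483 and 9.28 (2.79), and En2, a factor of the midbrain and cerebellum, 0.193 and 6.82 (2.71). Among 29 Hox and Cdx genes, which set posterior identity, 11 were counted and 9 were higher, 10 of the 11 through the induced library alone. Each of the 7 counted Hoxb genes was higher, with Hoxb8 at 0.0186 and 4.56 FPKM (2.45), Hoxb4 at 0.0989 and 4.02 (2.19) and Hoxb2 at 0.927 and 7.76 (2.18). In the forebrain and eye list only 4 of 17 were counted. The eye field factors Six3 (0.215 FPKM) and Rax (0.0407) stayed under 1 FPKM in the induced library, and Otx2, a factor of the epiblast, forebrain and midbrain, was lower (94.6 and 31.0 FPKM, -1.58). Lhx2 (0.125 and 2.36 FPKM, 1.58) and Dlx5 (0.0148 and 3.02 FPKM, 1.99) were the higher members.

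Structural genes of neurons differed from moderate starting levels, so that fewer depended on the counting rule. In the neuronal cytoskeleton list 17 of 19 were counted, 8 higher and 0 lower. Of 15 with at least 1 FPKM on both sides 6 were higher, where 3.3% of all such genes were. The list was chosen with earlier results of these data known, so the comparison only describes it. The gene of neuronal beta-tubulin, Tubb3, differed by 2.92 (2.92 and 28.6 FPKM). Mtap2 (MAP2), a dendritic microtubule protein, had 2.36 and 14.6 FPKM (2.22), and Dclk1, a doublecortin-like kinase, 3.83 and 19.1 (2.06). Dcx, the migrating neuron marker doublecortin, started near 0 with 0.0494 and 3.43 FPKM (2.08). Neurofilament genes did not move with them: Nefl differed by -0.23 and Nefm by -0.42.

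Neural adhesion molecules had 15 of 21 counted, 6 higher and 0 lower, and 4 of 8 higher among those with at least 1 FPKM on both sides. Protocadherin 8 (Pcdh8) had 1.499 and 12.4 FPKM (2.42), Cdh8 0.0970 and 3.07 (1.89), Ncam1 0.590 and 4.18 (1.70) and contactin 2 (Cntn2) 2.02 and 8.78 (1.69). Axon guidance genes differed in both directions. Of 33 counted, 10 were higher and 2 lower, with a median of 0.28. Receptors and ligands of the ephrin system were among the higher ones, with Epha4 at 3.25 and 18.03 FPKM (2.16), Epha3 at 0.122 and 3.05 (1.85) and Efna5 at 2.08 and 9.07 (1.71). The lower members were the semaphorin gene Sema6a, with 16.9 and 6.17 FPKM (-1.32), and Slit3, with 11.5 and 5.16 (-1.02). For synaptic vesicle genes 4 of 14 counted were higher, among them Rab3a (1.08 and 6.37 FPKM, 1.82), Syt1 (0.115 and 2.75 FPKM, 1.75) and Cplx2 (1.78 and 6.74 FPKM, 1.48), and their median was 0.51. With quantile normalisation that median was 0.24. Of 13 listed glial genes, 5 were counted, 0 were higher and 1 was lower, the growth factor receptor gene Pdgfra (5.40 and 1.18 FPKM, -1.55), which mesoderm also expresses. Gfap, Olig1 and Olig2 lay under 0.2 FPKM in both libraries.

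**Figure D2:**
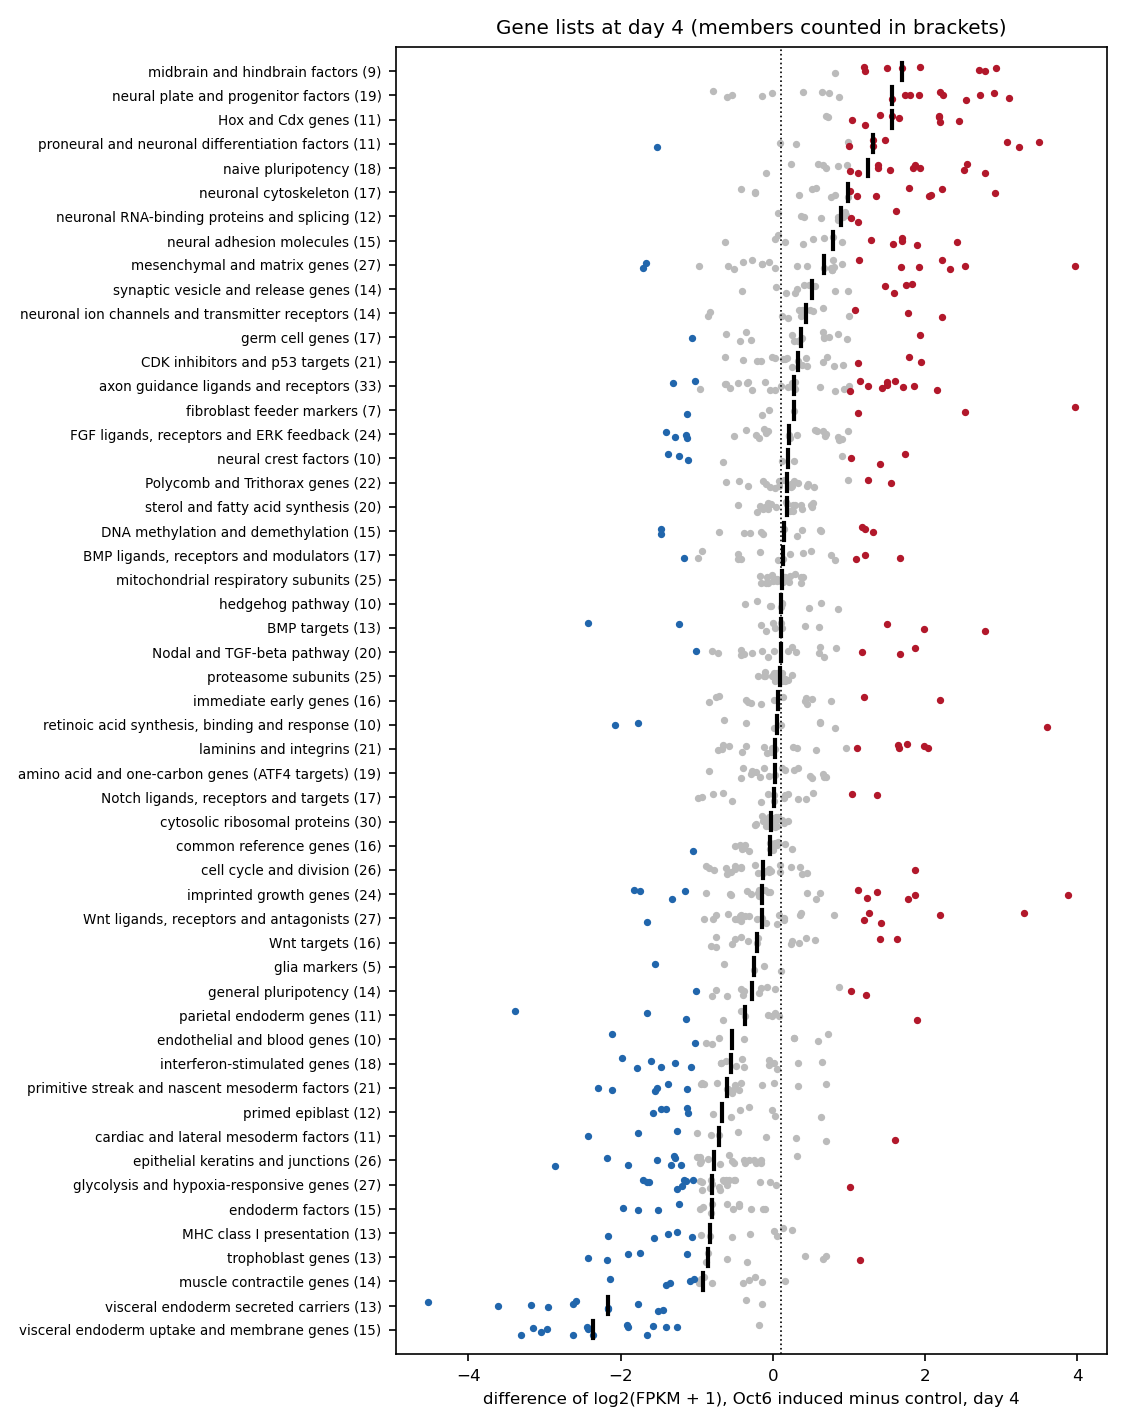
Each row is a gene list with at least 5 counted members, and each point a counted member placed by its difference of log2(FPKM + 1), induced minus control, at day 4, in red at 1 or above and blue at -1 or below; black bars are list medians and the dotted line is the median of all counted genes (0.10). Members counted through only 1 library had to differ, so the outer lists are partly set by the counting rule.

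Pluripotency genes did not move as a block. Naive pluripotency genes, which mark the preimplantation state, had 18 of 18 members counted, 11 higher and 0 lower, with a median of 1.25. Here 16 members had at least 1 FPKM in both libraries, and 10 of those were higher. Dppa5a was the most abundant, at 427 and 1247 FPKM (1.54). Nr5a2, a nuclear receptor that sustains Oct4 expression, had 1.38 and 12.9 FPKM (2.55), the orphan receptor gene Nr0b1 1.84 and 15.3 (2.52), and Zfp42 (Rex1) 23.8 and 88.1 (1.85). Gbx2, named above for the hindbrain, is also a member of this list. Nanog was nearly level at 96.5 and 115 FPKM (0.24), as was Tbx3 at -0.09. Primed epiblast genes had 12 of 12 counted, all in both libraries, with 0 higher, 5 lower and a median of -0.67. Otx2 has been given above, Dnmt3b, the de novo DNA methyltransferase of the epiblast, had 248 and 89.4 FPKM (-1.46), and Fgf5 had 88.1 and 32.6 (-1.41). Fgf8, shared with the primitive streak, had 102 and 46.0 FPKM (-1.13) and Foxd3 6.54 and 2.49 (-1.11). Pou5f1 (Oct4), which serves both states, had 495 and 445 FPKM (-0.15). Among the enzymes that act on DNA methylation the other de novo enzyme gene, Dnmt3a, was at 19.9 and 31.4 FPKM (0.63), and the dioxygenase genes Tet3 (2.76 and 8.36 FPKM, 1.31) and Tet2 (1.44 and 4.52 FPKM, 1.18) were higher.

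The direction of the naive genes depended on the day. At day 2, 2 of the 18 were higher and 4 lower with a median of -0.16, and at day 6, 8 were higher and 0 lower with a median of 0.93. Dppa5a changed sign, with 2052 FPKM in control and 874 in induced bodies at day 2 (-1.23), but 427 and 1247 at day 4 (1.54). Zfp42 did not change sign and was nearly level at day 2. Its control levels were 104, 23.8 and 11.6 FPKM at days 2, 4 and 6, and its induced levels 106, 88.1 and 37.8. The induced level at day 4 thus lay nearer to the day 2 levels than the control level did. Nr0b1 had 28.7, 1.84 and 0.800 FPKM in control and 25.9, 15.3 and 6.496 in induced bodies, the same order. Dppa3 differed from these, since its control level was low on all days (1.38, 1.999 and 4.01 FPKM) and its induced level highest at day 4 (1.09, 10.5 and 7.91).

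The lowest list medians were those of visceral endoderm genes, -2.17 for secreted carriers and -2.36 for uptake and membrane genes. Of 20 secreted carriers, 13 were counted, 0 higher and 11 lower, and 8 of the 13 were counted through control alone. Of 18 uptake and membrane genes, 15 were counted, 0 higher and 14 lower. There, 10 members had at least 1 FPKM in both libraries and 9 of those were lower, where 1.5% of all such genes were. Since the lists were chosen with earlier results of these data known, that comparison is a description and not independent support. Amn belongs to both lists. In whole RNA from a culture, fewer cells of a type and less RNA per cell cannot be told apart. Ttr, a carrier of thyroid hormone, had 26.6 FPKM in control and 0.200 in induced bodies (-4.53). The apolipoprotein B gene Apob had 13.0 and 0.148 FPKM (-3.61). The endocytic receptor complex of this tissue was low throughout its parts: megalin (Lrp2) had 22.2 and 1.81 FPKM (-3.04), cubilin (Cubn) 15.0 and 0.799 (-3.16), amnionless (Amn), which anchors cubilin, 8.63 and 0.565 (-2.62), and the clathrin adaptor Dab2 45.7 and 3.69 (-3.32). Carbonic anhydrase 4 (Car4) had 146 and 17.7 FPKM (-2.97). The exceptions, with differences under 2-fold, were Apoe (290 and 262 FPKM), Ctsl (230 and 180) and Emp2 (3.10 and 2.63), genes that many cell types express.

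Days 2 and 6 place these decreases. Cubn, Lrp2 and Dab2 were lower on each day. Their day 2 differences were -2.44, -2.44 and -1.65, and those of day 6 were -2.42, -2.39 and -2.52. The leading carriers were close to 0 in both arms at day 2, where Ttr had 0.150 and 0.0955 FPKM and Apob 0.422 and 0.473. Control bodies then reached 48.0 FPKM for Ttr at day 6 and induced bodies 4.25. Endoderm transcription factors were lower to a smaller extent, with 4 of 15 counted members lower, 0 higher and a median of -0.80. Hnf4a, a regulator of the visceral endoderm, had 3.16 and 0.0598 FPKM (-1.97), and Gata4 14.5 and 3.55 (-1.77). Sox17 (17.96 and 9.04 FPKM, -0.92), Gata6 (14.6 and 7.87, -0.82) and Foxa2 (22.2 and 16.1, -0.44) were short of 2-fold, although Sox17 passed the threshold with median-ratio scaling. In the parietal endoderm list, Srgn, a proteoglycan core protein gene, had 42.2 and 3.14 FPKM (-3.38), and the basement membrane collagens Col4a1 and Col4a2 differed by -1.66 and -1.14, but Sparc (-0.06) and Lamc1 (0.04) were level.

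Primitive streak and early mesoderm genes were lower on a smaller scale. In that list 21 of 24 were counted, 0 higher and 6 lower, with a median of -0.60. Mesp1, a factor of nascent cardiac mesoderm, had 12.8 and 1.81 FPKM (-2.29), and Kdr, a VEGF receptor of its descendants, 6.97 and 0.834 (-2.12). Pdgfra had 5.40 and 1.18 FPKM (-1.55), and Snai1, the repressor of E-cadherin, 11.7 and 3.88 (-1.38). Several abundant streak genes were short of 2-fold, with T (Brachyury) at -0.54 (196 and 135 FPKM), Eomes at -0.60 (83.1 and 54.5) and Mixl1 at -0.59 (65.7 and 43.4). Hand1, a factor of lateral mesoderm and extraembryonic tissue, had 7.65 and 0.608 FPKM (-2.43), and Cfc1 (Cryptic), a Nodal co-receptor, 27.5 and 5.05 (-2.24). Muscle contractile genes had 14 of 20 counted and 5 lower, led by the atrial light chain gene Myl7 with 8.76 and 1.22 FPKM (-2.14).

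Epithelial and mesenchymal lists had medians of opposite sign. All 26 keratin and junction genes were counted in both libraries, 8 of them lower and 0 higher, with a median of -0.77. The simple epithelial keratins led the list, Krt19 with 34.3 and 3.85 FPKM (-2.86), Krt18 with 166 and 36.1 (-2.17) and Krt8 with 197 and 52.2 (-1.90). E-cadherin (Cdh1) had 132 and 53.7 FPKM (-1.28) and desmoplakin (Dsp) 16.4 and 5.07 (-1.52). Cldn6 lay just short of the threshold at 203 and 101 FPKM, and Epcam (95.9 and 73.6) differed by -0.38. N-cadherin (Cdh2) was level at 32.3 and 33.1 FPKM (0.03). Of 27 counted mesenchymal and matrix genes 7 were higher and 2 lower, with a median of 0.68, and of 21 with at least 1 FPKM on both sides 5 were higher. The higher ones included Col1a2 (1.003 and 30.4 FPKM), Postn (0.101 and 5.36, 2.53), Lox (0.123 and 4.67, 2.34) and Cdh11 (7.999 and 33.1, 1.92), while Has2, a hyaluronan synthase, was lower (12.3 and 3.07, -1.71). Col1a2 was higher without its chain partner Col1a1 (1.72 and 1.46 FPKM, -0.15). Markers of feeder fibroblasts, the cells on which stem cells were kept, had a summed level of 16.3 FPKM in control and 50.8 in induced bodies over 13 genes. Col1a2 and Postn, given above, account for the rise in that sum. Of the 7 counted, 3 were higher (Col1a2, Postn and S100a4) and 1 lower (Thy1). None of the 13 was listed at 0 in either library, Fap lay at 0.0273 and 0.0337 FPKM, and Col3a1, Lum and Dcn were under 1 FPKM in both. Their part in the matrix gene differences was not tested.

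Genes of glycolysis and of the hypoxia response formed the most abundant group that was lower. All 27 counted members had at least 1 FPKM in both libraries; 8 were lower and 1 higher, and their median was -0.79. Ndrg1, a stress-responsive gene, had 14.4 and 3.72 FPKM (-1.70), the glucose transporter gene Slc2a1 387 and 122 (-1.66), the lactate exporter gene Slc16a3 123 and 39.2 (-1.62) and the phosphofructokinase gene Pfkl 156 and 64.9 (-1.25). Ldha, for lactate dehydrogenase A, was the most abundant of all lower genes, at 2167 and 983 FPKM (-1.14). Aldoa (1036 and 461 FPKM, -1.17) and Pgk1 (1443 and 697, -1.05) were also among the 5 most abundant lower genes, and Pgk1 was at -0.98 with quantile normalisation. Gapdh, often used as a reference, had 427 and 301 FPKM (-0.50). The summed level of the 29 listed genes was 10174 FPKM in control and 5511 in induced bodies. Ankrd37 was the exception, with 5.52 and 12.2 FPKM (1.02). At day 2 the list median was -0.41 and at day 6 -0.32.

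Interferon-responsive genes and the antigen presentation machinery were lower in part. Of 18 counted interferon-stimulated genes 6 were lower and 0 higher, with a median of -0.55, and medians of 0.01 at day 2 and 0.29 at day 6. Gbp2, a guanylate-binding GTPase, had 22.9 FPKM in control and 5.03 in induced bodies at day 4 (-1.99), but 3.23 and 3.24 at day 2 and 1.82 and 2.41 at day 6. Gbp1, of the same family, followed with 16.2 and 2.45 FPKM at day 4, against 1.82 and 1.68 at day 2 and 1.08 and 1.43 at day 6. Control day 4 was thus the highest of the 6 libraries for both genes, and the 5 others lay between 1.82 and 5.03 FPKM for Gbp2. Usp18 (5.77 and 0.972 FPKM at day 4) and Isg15 (8.78 and 2.24) also had their highest level in control at day 4. Not all lower members were confined to that day. Irf1 was lower at day 4 (78.8 and 28.0 FPKM, -1.46) and at day 2 (43.4 and 17.1, -1.30). At day 2, 3 of 13 counted interferon-stimulated genes were lower and 0 higher. Within the MHC class I list 5 of 13 were lower, the immunoproteasome genes Psmb8 (25.9 and 4.99 FPKM, -2.17), Psmb10 (-1.25) and Psmb9 (-1.06), and the peptide loading genes Tap2 (10.2 and 2.80, -1.56) and Tapbp (-1.38). Psmb8 was also lower at day 2 (4.44 and 0.693 FPKM, -1.68), as was Psmb10 (34.9 and 14.9, -1.18). The heavy chain genes H2-K1 (-0.54) and H2-D1 (-0.30) and B2m (0.25) were not. These day 4 differences rest on 1 control library.

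**Figure D3:**
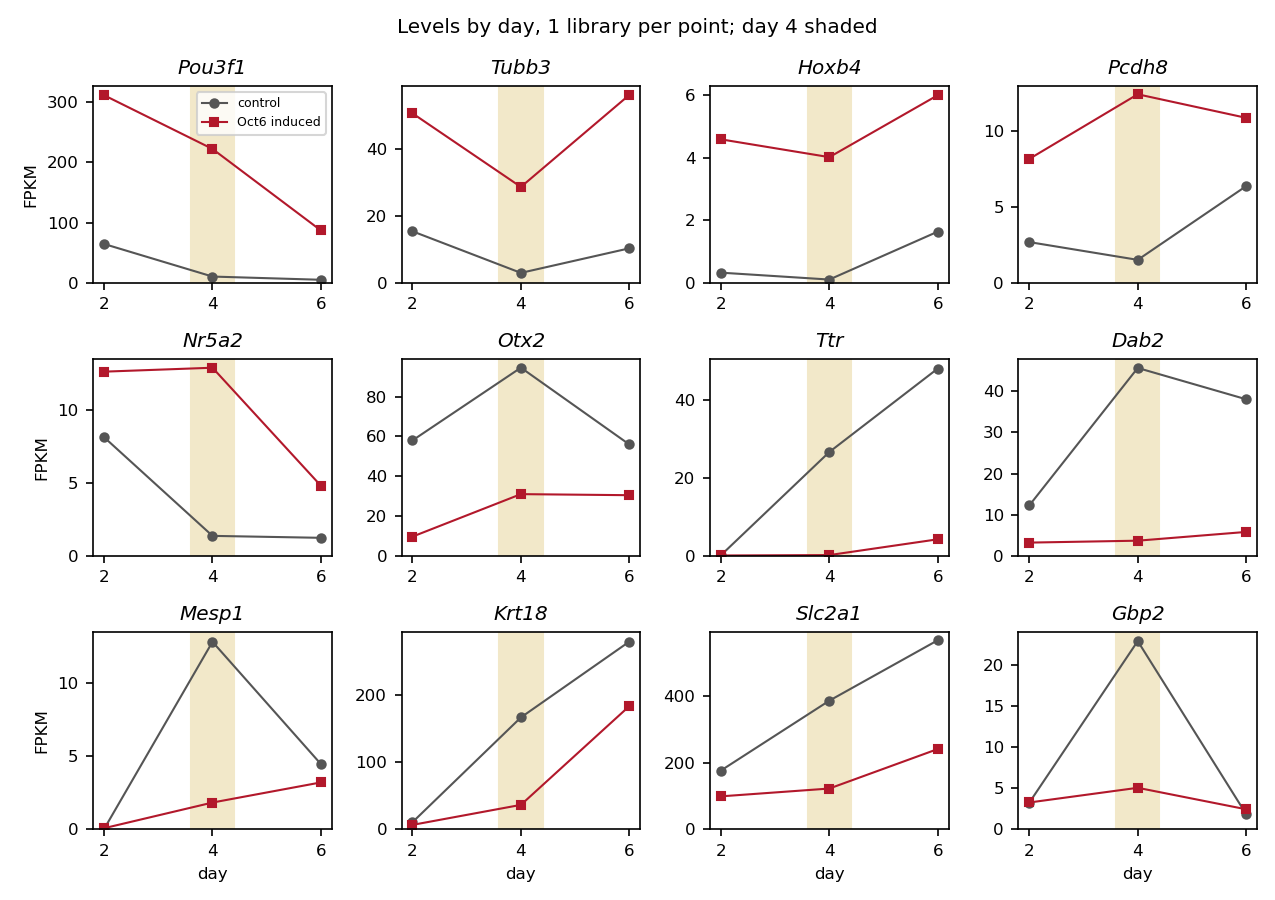
FPKM (vertical axis, from 0, scaled per gene) of 12 genes by day (horizontal axis) in the control (grey circles) and Oct6 induced arm (red squares), 1 library per point with day 4 shaded. Gbp2 and Mesp1 peaked in control at day 4, Ttr and Krt18 were higher still in control at day 6, and Tubb3 was above control on each day.

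Signalling pathways showed single strong members more than shifts of a whole pathway. Among FGF pathway genes 4 of 24 counted were lower and 0 higher, and all 4 were ligands: Fgf5 and Fgf8, given above, Fgf10 (10.9 and 3.87 FPKM, -1.28) and Fgf3 (3.83 and 1.19, -1.14). The ERK feedback genes that report pathway activity did not follow the ligands, with Dusp6 at 0.55, Spry2 at 0.70 and Spry4 at 0.22. Among BMP targets Id2 was higher (8.19 and 62.8 FPKM, 2.79) and so was Id4 (1.02 and 4.70, 1.497), while Id1 (56.8 and 58.2, 0.03, and -0.06 with median-ratio scaling) and Id3 (0.11) were level and Msx2 was lower (7.21 and 2.49, -1.24). Wnt pathway members differed in both directions. Shisa3, which retains Wnt and FGF receptors inside the cell, had 0.598 and 14.8 FPKM (3.30), the receptor gene Fzd1 1.99 and 12.7 (2.20), and the antagonist gene Sfrp5 3.75 and 0.510 (-1.65), while the feedback gene Axin2 had 10.5 and 13.6 (0.34). In the Nodal and TGF-beta list 20 were counted, 3 higher and 1 lower. Tgfb2 (2.67 and 12.4 FPKM, 1.87), Gdf3 (7.33 and 25.6, 1.67) and Lefty1 (38.1 and 87.7, 1.18) were higher, and Gdf1 was lower (2.27 and 0.625, -1.01). For retinoic acid, the binding protein gene Crabp1 was higher (6.11 and 85.4 FPKM, 3.604) and the degrading enzyme gene Cyp26a1 lower (82.0 and 18.7, -2.08). The immediate early gene Egr1 had 12.03 and 58.6 FPKM (2.19), but Fos, Jun and Junb differed by less than 1.

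Imprinted growth genes went in both directions with 6 of 24 counted higher and 4 lower. The higher ones were Plagl1 (1.402 and 34.3 FPKM, 3.88), Ndn (14.9 and 56.7, 1.86), Mest (47.7 and 166, 1.77), Dlk1, Nnat and Cdkn1c. The lower ones were Phlda2 (64.5 and 17.5 FPKM, -1.82), Igf2 (33.4 and 9.26, -1.74), Grb10 and Peg3. Cell cycle genes had a median of -0.13, with 19 of 26 below 0 and 0 lower by 2-fold. The largest decreases were those of Mki67 (22.5 and 11.8 FPKM, -0.88), Cdk6 (-0.84) and Plk1 (67.3 and 38.9, -0.77). Ccnd2, a D-type cyclin of neural progenitors, was the 1 higher member of 26 (4.97 and 20.9 FPKM, 1.88). The CDK inhibitor genes Cdkn2a (4.88 and 21.6 FPKM, 1.94), Cdkn2c (0.0609 and 2.67, 1.79) and Cdkn1c (13.0 and 29.3, 1.11) were higher, whereas the p53 target Cdkn1a was at 0.25.

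In the libraries of the other days, genes of both directions kept their day 4 sign more often than that sign occurred among all counted genes. Day 2, day 4 and day 6 use separate libraries. Of the 772 genes higher at day 4, 89.0% had a positive difference at day 2, where 64.3% of all genes counted at day 4 did, and 86.7% at day 6, against 60.5%. At least 2-fold higher at day 2 were 429 of them, which is 55.6% of the day 4 list and 35.1% of the 1223 genes of the day 2 list (9.72% of genes counted that day). At day 6 it was 242, or 31.3% of the day 4 list and 56.0% of the 432 genes of day 6 (3.37%). Of the 268 lower genes, 62.3% had a negative difference at day 2, where 35.5% of all genes did, and 73.1% at day 6, against 39.3%. At day 2, 40 of them were 2-fold lower, or 14.9% of the day 4 list and 17.4% of the 230 genes of day 2 (1.83%). At day 6 it was 55, or 20.5% of the day 4 list and 20.4% of the 269 genes of day 6 (2.1%). Of the 772 higher genes 141 were higher on all 3 days, and of the 268 lower genes 10 were lower on all 3. An expected size of this overlap was not computed.

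The share of changed genes that differed at day 4 alone was larger among lower genes, but the same share of all counted genes was not computed. Genes near 0 FPKM in both arms on another day differ little there by construction. At day 2 this held for Mesp1 (0 and 0.0604 FPKM in control and induced) and Hand1 (0.280 and 0.434). Without small RNA, predicted and pseudogene symbols, 41 of 727 higher genes (5.64%) and 67 of 226 lower genes (29.6%) differed by less than 0.5 on both other days. With at least 1 FPKM on both sides it was 16 of 362 (4.42%) and 51 of 164 (31.1%). Among the higher ones were Ust, a sulfotransferase gene (0.892 and 9.88 FPKM at day 4, 2.52), the kinase gene Plk2 (5.14 and 15.7, 1.44), the receptor phosphatase gene Ptprg (6.78 and 17.9, 1.28) and Pmch, which encodes melanin-concentrating hormone (1.06 and 6.64, 1.89). For Plk2 the control library had its lowest value at day 4, with 18.3 FPKM at days 2 and 6. The lower ones included Mesp1, Hand1, Cfc1, Gbp1, Gbp2 and Amot, the Hippo pathway adaptor angiomotin. Amot started at 13.0 and 13.9 FPKM on day 2, stood at 154 and 43.7 on day 4 (-1.80) and ended at 145 and 151. Cfc1 had 0.135 and 0.102, then 27.5 and 5.05, then 16.8 and 18.9 FPKM. For these 2 genes the induced library at day 6 had reached the control level. Mesp1 had 4.44 and 3.19 FPKM at day 6, and Hand1 57.8 and 42.4, so they too lay closer together than at day 4.

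**Figure D4:**
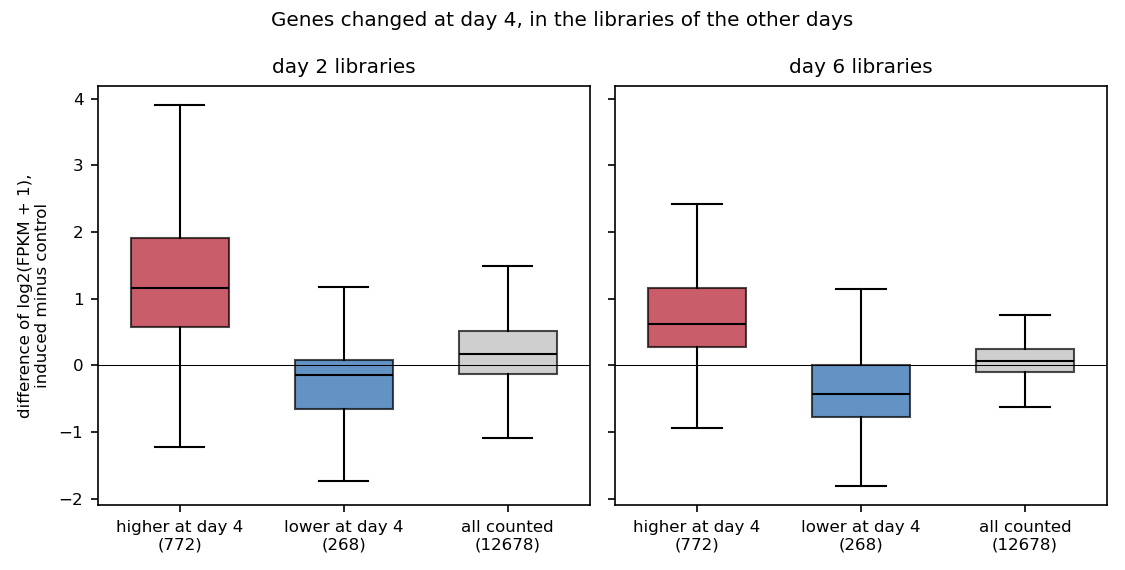
Differences of log2(FPKM + 1), induced minus control, in the day 2 (left) and day 6 libraries (right) for genes higher at day 4 (772), lower at day 4 (268) and all counted genes (12678); boxes show the quartiles and median, whiskers reach at most 1.5 times the box height, and outliers are not drawn. Higher genes had medians of 1.16 and 0.62, lower genes of -0.14 and -0.43.

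Some short or repetitive transcripts had values that jumped between days and are uncertain. Gm9846, a predicted gene, was listed at 4.58 and 1594 FPKM at day 4. Its day 2 values were 352 and 126 FPKM, and those of day 6 were 439 and 539. Rps27, a ribosomal protein gene, had 1843 and 585 FPKM at day 4 (-1.65) and 1169 and 1179 at day 6. The sources used here do not give how reads matching several near-identical copies were assigned. Small RNA and predicted symbols made up 45 of the higher and 42 of the lower genes, and 38 higher genes were listed at 0 in control and 31 lower genes at 0 in induced cells, where an exact 0 may also be a failed estimate.

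The Oct6 ChIP peaks of day 4 can be set beside these differences. The deposited list holds 7979 peaks of 133 bp on the mouse build mm9, with scores from 7.6 to 145.6, and 7965 of them lie on assembled chromosomes. A gene was taken to have a peak when the centre of a peak lay within 10 kb of its annotated start (GENCODE, NCBIM37, the assembly behind mm9). Of 752 higher genes with a matched position 172 had one, 22.9% (95% Wilson interval 20.01 to 26.0%). Of 260 lower genes 22 did, 8.46% (5.65 to 12.5%), and of 11486 counted genes that differed by less than 2-fold 2126 did, 18.5% (17.8 to 19.2%). The intervals cover counting error only. Within 1 kb the shares were 9.84% of higher (7.91 to 12.2%), 1.54% of lower (0.5999 to 3.89%) and 12.01% of other genes (11.4 to 12.6%), so that higher and other genes overlapped within counting error. Higher genes also span more of the genome, with a median of 36515 bp against 13668 bp for lower and 22626 bp for other genes. When genes were put in 4 classes of equal size by span, 26.9% of higher genes (22.5 to 31.9%) and 15.7% of other genes (14.4 to 17.1%) had a peak within 10 kb in the class of longest genes. In the second shortest class the shares were 15.9% (10.3 to 23.8%) and 19.01% (17.6 to 20.5%). Top peak scores of genes with a peak had a median of 11.4 in the higher, lower and other set alike.

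**Figure D5:**
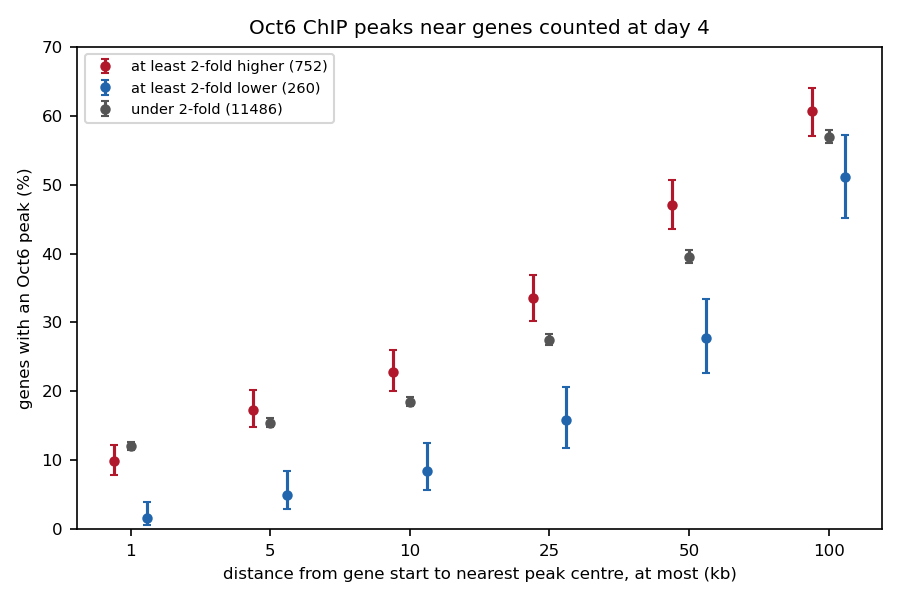
Share of genes (vertical axis, percent) with an Oct6 peak centre within the distance on the horizontal axis (kb, not to scale), for higher (752), lower (260) and other genes (11486) at day 4; bars are 95% Wilson intervals. Lower genes have the smallest share at each distance, and the intervals of higher and other genes overlap at 1, 5 and 100 kb.

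Against 22.9% of all higher genes, 2 of 10 higher neural progenitor factors had a peak within 10 kb (Sox21 and Zic1), 3 of 6 higher neural adhesion genes (Ncam1, Pcdh8 and Cadm3), 4 of 9 higher Hox and Cdx genes and 4 of 10 higher axon guidance genes. The shares were 2 of 8 for higher neuronal cytoskeleton genes, 1 of 8 for midbrain and hindbrain factors and 1 of 7 for neuronal differentiation factors. None of the 4 higher synaptic genes had a peak, nor any of the 3 higher genes each in the RNA-binding, ion channel and neural crest lists. These counts are small. The Hoxb genes share peaks, since Hoxb3 and Hoxb4 were assigned the same one, as were Hoxb7 and Hoxb8. The peak of Ncam1 was centred at -92 bp from its start (negative is upstream) with a score of 16.5, that of the formin gene Fmn2 (0.911 and 8.11 FPKM, 2.25) at 41 bp with a score of 17.7, and that of Igfbpl1 (1.88 and 16.9 FPKM, 2.64), an IGF-binding protein relative, at -3026 bp with 15.2. Pou3f1 itself had 2 peaks within 10 kb, the stronger at -441 bp with a score of 12.7. None of the 11 higher naive pluripotency genes had one. Of the lower visceral endoderm genes only Cited1 (12.3 and 1.58 FPKM, -2.36) did, 51 bp from its start. Other lower genes with a peak were Litaf (30.9 and 11.6 FPKM, -1.34), Crb3, Cdk18 and Cd55, and 10 of the 22 were small RNA symbols, of which Mir302a, Mir302b and Mir302d share a peak, as do Mir290 and Mir293.

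The octamer ATGCAAAT, the classical site of POU factors, was searched on both strands of the peaks. It was present in 4.19% of all peaks and in 1.07% of flanking windows of the same length that end 500 bp away. Of 204 peaks near higher genes 6 held it, 2.94% (1.35 to 6.27%), of 1880 near other genes 28, 1.49% (1.03 to 2.14%), and of 19 near lower genes 0. The related word ATGCATAT was in 7.18% of peaks and 0.986% of flanks, and the longer MORE palindrome, a site of paired POU factors that contains this word, in 0.540% of peaks and in 0 of 15930 flanks. Of the 6 octamer peaks near higher genes 5 are shown here, followed by 2 peaks with the related words, so that the sites can be read in their surroundings. Sequences are the forward strand of NCBIM37, 5′ to 3′, each the full 133 bp peak, and capitals mark the octamer, ATGCATAT or the MORE palindrome on either strand.
Pcdh8, chr14:80171147-80171279: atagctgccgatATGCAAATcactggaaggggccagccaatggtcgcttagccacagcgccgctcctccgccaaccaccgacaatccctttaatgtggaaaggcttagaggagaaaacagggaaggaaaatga
A930038C07Rik, chr6:65622099-65622231: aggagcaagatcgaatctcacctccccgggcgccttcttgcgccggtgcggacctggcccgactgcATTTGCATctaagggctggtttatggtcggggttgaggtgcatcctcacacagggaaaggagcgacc
Dnm3, chr1:164404904-164405036: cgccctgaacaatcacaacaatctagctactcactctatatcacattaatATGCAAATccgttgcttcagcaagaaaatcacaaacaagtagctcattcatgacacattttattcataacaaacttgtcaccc
Col1a2, chr6:4457730-4457862: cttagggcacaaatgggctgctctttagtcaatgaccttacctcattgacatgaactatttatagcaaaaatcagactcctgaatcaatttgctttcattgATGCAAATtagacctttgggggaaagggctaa
Plce1, chr19:38600577-38600709: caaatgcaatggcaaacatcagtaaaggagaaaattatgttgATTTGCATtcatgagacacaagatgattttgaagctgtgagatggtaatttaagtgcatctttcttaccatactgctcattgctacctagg
Zic1, chr9:91250607-91250739: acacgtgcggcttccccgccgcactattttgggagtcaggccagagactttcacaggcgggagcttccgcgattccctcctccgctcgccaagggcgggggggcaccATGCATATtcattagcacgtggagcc
Ankrd44, chr1:54985424-54985556: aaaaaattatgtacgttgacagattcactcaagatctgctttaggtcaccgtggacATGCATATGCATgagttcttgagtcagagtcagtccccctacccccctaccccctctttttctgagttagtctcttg

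The Pcdh8 peak (score 10.1) is centred at -94 bp from the start of that gene. Those of A930038C07Rik (13.9), Plce1 (11.4), Col1a2 (10.1) and Dnm3 (10.1) lie 581, 1956, 2982 and 3195 bp downstream of the respective starts. In the Pcdh8 sequence the octamer is read on the printed strand, and in that of A930038C07Rik on the opposite strand, as ATTTGCAT. The Zic1 peak (15.2) lies 9975 bp downstream of the start, beyond the gene's annotated end, and the Ankrd44 peak (12.7), with the palindrome, at -2259 bp. Their expression patterns were not alike. A930038C07Rik had 0.0380 and 8.13 FPKM at day 4 (3.14) and was 2-fold higher on all 3 days. Dnm3, a dynamin gene of neurons, had 0.0370 and 2.97 FPKM (1.94) with 0.17 at day 2. Plce1, a phospholipase C gene, differed at day 4 only (0.702 and 2.71 FPKM, 1.12), with 0.04 and 0.09 on the other days, and Ankrd44 (0.504 and 2.09 FPKM, 1.04) at days 2 and 4. A match in these windows is a description of the sequence and not evidence of use.

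Promoters of the changed genes were compared for the octamer and for CpG content. In the 300 bp around the start (250 before and 50 after), the octamer occurred in 1.99% of promoters of higher genes, 1.54% of lower, 1.18% of other counted genes and 1.68% of all matched genes. CpG-rich promoters, with an observed over expected CpG ratio of at least 0.6, were 53.9% of those of higher genes (50.3 to 57.4%), 31.5% of lower genes (26.2 to 37.4%) and 71.6% of the other genes (70.7 to 72.4%). By chromosome the median difference lay between 0.04 and 0.17 for all autosomes and X. Chromosome 18 had the largest share of higher genes, 11.1% of 315 counted, and chromosome X the largest share of lower genes, 3.54% of 452.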

How the data were processed

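The 6 RNA-seq libraries and the Oct6 ChIP and input libraries were grouped by their labels, with 1 library per arm and day. The submitters' processing notes list HOMER, Cuffdiff, Cufflinks 1.3.0 and TopHat 1.4.1, and build mm9. FPKM values per gene symbol, computed by the authors, were used as deposited, and peak scores are the authors' deposited values, used only to describe and rank peaks; strand and multi-mapping rules are not given in the sources used here. Differences of log2(FPKM + 1) were computed here for genes with an FPKM of at least 1 in either library, with no test. Fragment numbers were estimated from the steps of genes under 0.3 FPKM. Of the table's symbols 96.1% matched the GENCODE annotation of NCBIM37. The members and the 55 gene lists were chosen with earlier results of these data known, and some genes lie in several lists. Named genes are Pou3f1, the 12 largest differences per direction at 10 FPKM or more without small RNA, predicted and pseudogene symbols, up to 4 members per list, up to 8 per direction seen at day 4 only at 5 FPKM or more, 4 per direction with opposite signs between days, the 5 most abundant changed genes per direction, up to 8 per direction near peaks of high score and 11 lineage markers; other list members, and the genes shown for their peak sequence, were named after their values were seen, and not every gene that the rule selects is named. Some items are not reported here. Steps were tested on simulated data. Python 3.11.15, numpy 2.4.6, pandas 2.3.3, statsmodels 0.14.6 and matplotlib 3.10.9 were used.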

Additional observations from a re-analysis of the deposited data

Results flagged for a closer look

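Several differences at day 4 had the opposite sign, at 2-fold or more, on another day, and none of these contrasts between days was tested. Among changed genes with at least 5 FPKM in the higher day 4 library, 11 genes higher at day 4 were 2-fold lower on another day and 13 lower genes were 2-fold higher. Without that limit, 12 of 772 higher genes were 2-fold lower at day 2 and 6 at day 6. Over all 12678 counted genes it was 197 and 147. Of 268 lower genes, 16 were 2-fold higher at day 2 and 7 at day 6, beside 1139 (8.98%) and 370 (2.92%) of all counted genes. Such reversals were thus about as frequent as among all counted genes, or less so. Postn, a matricellular protein gene, differed by 2.53 at day 4 (0.101 and 5.36 FPKM in control and induced), but by -2.13 at day 6 (33.0 and 6.79 FPKM). Krt19 differed by -2.86 at day 4, but by 1.38 at day 2 (1.09 and 4.43 FPKM). Prss12, the neurotrypsin gene, differed by -1.41 at day 4 (6.99 and 2.01 FPKM), but by 1.12 at day 2 (0.106 and 1.401 FPKM).

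Others of the largest such reversals include small RNA and predicted genes, whose values are uncertain. The predicted gene Gm9846 had a difference of 8.16 at day 4 and of -1.48 at day 2, and Amd1, a polyamine synthesis gene, of 3.48 and -3.19. Snord58b differed by 1.66 at day 4 and -5.78 at day 6, where it was listed at 0 in induced cells. The microRNA genes Mir302b and Mir293 had differences of -2.07 and -1.62 at day 4, but of 1.38 and 1.31 at day 6.

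Some gene lists had medians of opposite sign on different days, over the members counted on each day. Forebrain and eye factors had a median of 1.04 over 4 members at day 4 and -0.96 over 8 at day 6. Of those 4, 3 were counted only through the induced library, and over all 17 listed genes the day 4 median was 0.06. Mesenchymal and matrix genes had 0.68 over 27 at day 4 and -0.65 over 29 at day 6. Secreted carriers of visceral endoderm had -2.17 over 13 at day 4 and 0.75 over 7 at day 2. Cardiac and lateral mesoderm factors had -0.70 over 11 at day 4 and 0.53 over 9 at day 2, and muscle contractile genes -0.92 over 14 and 1.18 over 10. The members counted differ between days, so these medians do not follow the same genes.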

How the results depend on the processing

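Both directions were kept under every alternative tried. With a pseudocount of 0.1 the counts grew to 1195 higher and 428 lower genes, by construction, since low genes then pass. With median-ratio scaling they were 684 and 325, with quantile normalisation 560 and 391, and with an FPKM of at least 3 they were 543 and 207. No setting turned the sign of any of the 24 list medians of at least 0.5 in size. Counting no member out brought several lists of weakly expressed genes closer to 0, for example cardiac and lateral mesoderm factors to -0.04 and endothelial and blood genes to -0.01. Peaks within 5 kb were found for 17.3% of higher and 5.0% of lower genes, beside 15.3% of all counted genes. Within 25 kb it was 33.5% and 15.8%, beside 27.6%. With the upper part of peaks by score alone it was 7.71% of higher and 3.46% of lower genes. The share of all counted genes is not given here for that setting. No paired analysis was possible because each arm has 1 library per day, and for the same reason no library could be left out. The induced library is the shallower, so a level near 0 there is less certain than in control.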
